A study of Homo sapiens with 18 samples.

Results

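SUIT2, a human pancreatic ductal adenocarcinoma line, was exposed to THZ1 at 100 nM for 6 h or to DMSO, the solvent control, and its polyadenylated RNA was sequenced. The 3 THZ1 libraries and the 3 DMSO libraries of SUIT2 were chosen by their labels, which is 6 of the 18 libraries of the study. The other 12 libraries come from the pancreatic cancer lines BxPC3 and Panc327, each with 3 THZ1 and 3 DMSO libraries at the same dose and time. All 26485 gene symbols of the count files were read, and 14011 had enough counts over the 18 libraries to be tested. The filter thus kept genes that are faint in SUIT2 but expressed in another line, and on SUIT2 alone it kept 12088. No group carried a genetic change in the labels, and each line is 1 model of the disease grown in culture. The labels number the libraries but do not say that they came from separate cultures, so the p-values rest on a spread between libraries that may be technical. That spread was estimated over all 18 libraries, those of BxPC3 and Panc327 included.

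THZ1 is a covalent inhibitor of the kinase CDK7 that also reaches CDK12 and CDK13. CDK7, with its cyclin CCNH and the assembly factor MNAT1, belongs to the general factor TFIIH and phosphorylates the tail of RNA polymerase II as transcription starts. A later step, the release of paused polymerase, is carried out by P-TEFb, the pair of CDK9 and cyclin T, whose activity is held back by HEXIM1 within the 7SK particle. CDK12 and CDK13, with cyclin K, act along the gene body, and termination factors such as the PNUTS protein and the ZC3H4 restrictor end transcription. The title of the study names the integrated stress response, the pathway led by the transcription factor ATF4, and the deacetylase SIRT6 in relation to resistance to transcriptional inhibition.

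The response of SUIT2 was made of many small changes. THZ1 altered 2044 of the 14011 genes (14.6%) at an adjusted p under 0.05 in edgeR's quasi-likelihood test, with 974 higher (6.95%) and 1070 lower (7.64%). Among these calls the median log2 fold change was 0.25 for genes that rose and -0.35 for genes that fell. Of the 1775 calls that averaged 10 CPM (read counts scaled to a common library size) or more in a group, 1700 (95.8%) changed by less than 1.5-fold. In 1635 of these 1775 the groups did not overlap, 808 with THZ1 higher and 827 with THZ1 lower; over all genes tested, THZ1 lay above DMSO without overlap in 14.2% and below it in 14% (28.1% together). A change of at least 2-fold was called for 20 higher genes (0.143%) and 63 lower genes (0.45%). Only 6 of these 83 genes reached 10 CPM in a group: RNA45S5 and HEXIM1 among the higher ones, and KRCC1, CTBP1-AS2, SFR1 and PPP1R10 among the lower ones. The other 2-fold calls were mostly faint, with 70 genes under 5 CPM in both groups and 8 without a single count in the 3 libraries of a group. Some of them passed the filter only through another line, such as TP63 with 1 count in SUIT2 THZ1 libraries and 11 in SUIT2 DMSO libraries. A fit of SUIT2 alone, with 12088 genes tested, called 713 higher and 1048 lower genes, of which 12 and 48 changed at least 2-fold. Leaving out 1 library left 601 to 763 higher and 752 to 909 lower genes, and the 601 came from leaving out DMSO replicate 3.

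**Figure D1:**
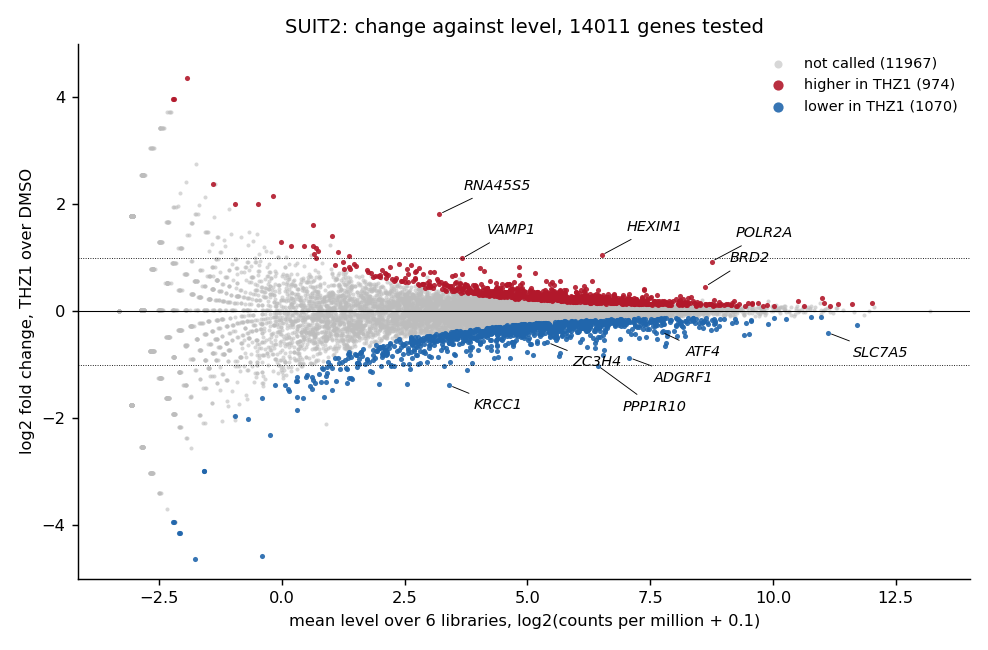
Change in SUIT2 against level. Each point is 1 of the 14011 genes tested, with the mean level over the 6 libraries on the x axis (log2 of CPM + 0.1) and the log2 fold change of THZ1 over DMSO on the y axis; red points were called higher (974) and blue points lower (1070), and the dotted lines mark 2-fold. Most called genes lie well inside the dotted lines, and POLR2A, HEXIM1 and PPP1R10 stand out among genes of moderate to high level.

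The 6 libraries were alike in depth and make-up. Gene counts totalled 6692486 to 8192459 in the THZ1 libraries and 7341873 to 8191721 in the DMSO libraries. The reads aligned to several places made up 12.9% ± 0.902 of records in THZ1 libraries and 13.2% ± 0.726 in DMSO libraries (SD, n = 3 each; exact permutation test, 2-sided, p = 0.7, where 0.1 is the smallest possible). The leading principal component held 35.3% of the variance and separated the THZ1 libraries from the DMSO libraries. Markers of epithelial cells summed to 8336 to 9138 CPM in THZ1 libraries and 8019 to 8448 CPM in DMSO libraries. Of the 9, 8 had at least 1 CPM in every library, while ESRP1 had only 0.366 to 0.953 CPM. Fibroblast markers summed to 2.39 to 3.91 CPM in THZ1 libraries and 3.66 to 4.22 CPM in DMSO libraries, with COL1A2, COL3A1, DCN and FAP at 0 in all 6 libraries. Most of these sums came from ACTA2, at 2.09 to 3.95 CPM, and COL1A1 had 22 counts in the 6 libraries. Endothelial markers summed to 2.82 to 4.48 CPM in THZ1 libraries and 2.59 to 3.79 CPM in DMSO libraries, nearly all from PECAM1, with KDR and TEK at 0. Of the 9 leukocyte markers, PTPRC, CD3E, CD3D and MS4A1 were at 0, and LYZ and CD68 made up nearly the whole sum of 347 to 386 CPM in THZ1 libraries and 348 to 376 CPM in DMSO libraries. Of the acinar markers 6 of 7, and of the endocrine markers 4 of 5, had no count. The levels are shares of each library of bulk cells, so fewer cells with a transcript and less of it per cell cannot be told apart.

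In 2 libraries, genes typical of the other lines had more reads, and where these reads came from was not tested. A set of 48 genes that BxPC3 expresses and SUIT2 hardly does summed to 35.4 CPM in THZ1 replicate 1 and 18.1 CPM in DMSO replicate 3, against 7.76 to 10.4 CPM in the other 4 libraries. A set of 52 such genes of Panc327 summed to 25.8 CPM in THZ1 replicate 1 and 30.7 CPM in DMSO replicate 3, against 7.99 to 8.99 CPM. Without these 2 libraries the test, on 2 libraries a group, called 493 higher and 669 lower genes, and none of the calls changed direction. The extracellular matrix genes FN1, COL4A1 and COL4A2 were called lower by more than 2-fold with all libraries, at adjusted p of 0.0193, 0.0279 and 0.0174. COL4A1 had 0, 0 and 0.116 CPM in THZ1 libraries and 0.364, 0.366 and 3.09 CPM in DMSO libraries, so that DMSO replicate 3 alone stood high. Without that library the adjusted p values were 0.546, 0.0886 and 0.756, and the falls of these matrix genes are not used further.

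The gene for the largest subunit of RNA polymerase II and a gene for a brake on elongation gave the clearest rises. POLR2A, the catalytic subunit, had 568, 568 and 557 CPM in THZ1 libraries and 297, 297 and 295 CPM in DMSO libraries. The groups were far apart, with no library near the other group, and the log2 fold change was 0.93 (SE 0.038, adjusted p = 1.02e-36 in edgeR). HEXIM1, the inhibitor of P-TEFb, had 122, 126 and 121 CPM in THZ1 libraries and 60.1, 61.5 and 56.5 CPM in DMSO libraries. All 3 THZ1 libraries lay above all 3 DMSO libraries, at a log2 fold change of 1.05 (SE 0.06, adjusted p = 7.54e-27 in edgeR). Among the falls, PPP1R10, which encodes the phosphatase regulator PNUTS, had 56.9, 56.8 and 57.8 CPM in THZ1 libraries and 111, 119 and 117 CPM in DMSO libraries. Its THZ1 level was about as low in every treated library, and the log2 fold change was -1.02 (SE 0.06, adjusted p = 1.29e-25 in edgeR). ADGRF1, an adhesion G protein-coupled receptor, had 91.9, 91.9 and 103 CPM in THZ1 libraries and 172, 176 and 175 CPM in DMSO libraries. Its groups did not overlap, and the log2 fold change was -0.87 (SE 0.053, adjusted p = 6.38e-25 in edgeR).

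**Figure D2:**
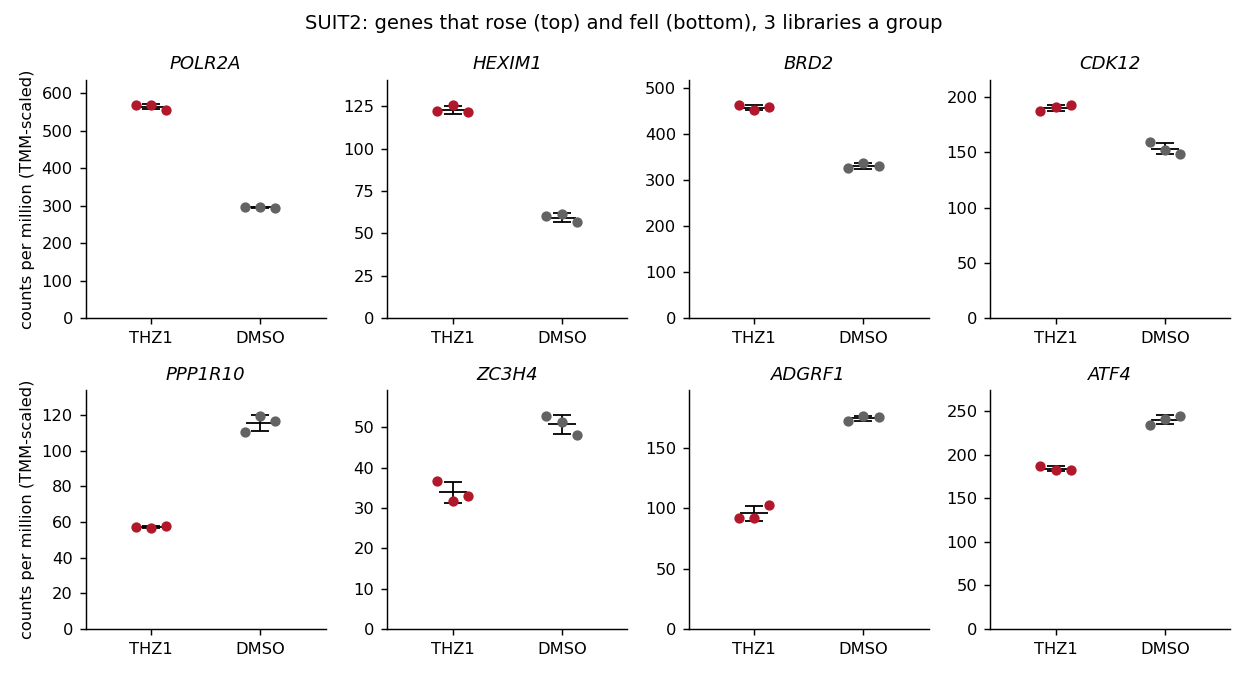
Levels of 8 genes in each SUIT2 library. Each point is 1 library, in TMM-scaled CPM on a linear axis that starts at 0; the horizontal bar is the mean and the whiskers are the SD over 3 libraries, with THZ1 left of DMSO. POLR2A lies at 557 to 568 CPM in THZ1 libraries and at 295 to 297 CPM in DMSO libraries, and in none of the 8 genes do the groups overlap.

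In the human genome (build GRCh38, GENCODE 29 annotation) POLR2A lies on chromosome 17 from 7484366 to 7514616, plus strand, and HEXIM1 is a gene of 1 exon on the same chromosome from 45148502 to 45152101, plus strand. PPP1R10 lies on chromosome 6 from 30600400 to 30618612, minus strand, where MRPS18B overlaps it on the other strand, and ADGRF1 lies on the same chromosome from 46997703 to 47042363, minus strand. The 250 bases before the RefSeq start of these 4 genes, which had the smallest p values in each direction, are shown to set the promoters of strongly changed genes side by side (RefSeq, build GRCh38.p14). Capitals mark the core of the box named after its letters TATAAA, the motif CCAAT and the so-called GC box with the letters GGGCGG, or their reverse complements, since both strands were searched.
POLR2A, chr17:7484116-7484365, plus strand: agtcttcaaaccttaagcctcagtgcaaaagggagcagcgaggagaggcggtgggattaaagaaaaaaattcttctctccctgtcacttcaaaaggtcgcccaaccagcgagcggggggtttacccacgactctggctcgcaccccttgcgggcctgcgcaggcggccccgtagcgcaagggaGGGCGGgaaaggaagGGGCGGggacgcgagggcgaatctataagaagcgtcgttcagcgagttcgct
HEXIM1, chr17:45148225-45148474, plus strand: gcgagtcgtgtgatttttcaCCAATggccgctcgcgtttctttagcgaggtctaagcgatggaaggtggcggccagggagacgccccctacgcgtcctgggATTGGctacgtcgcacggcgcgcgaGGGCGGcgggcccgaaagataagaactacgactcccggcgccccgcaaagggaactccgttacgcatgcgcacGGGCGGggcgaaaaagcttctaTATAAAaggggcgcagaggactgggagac
PPP1R10, chr6:30617244-30617493, minus strand: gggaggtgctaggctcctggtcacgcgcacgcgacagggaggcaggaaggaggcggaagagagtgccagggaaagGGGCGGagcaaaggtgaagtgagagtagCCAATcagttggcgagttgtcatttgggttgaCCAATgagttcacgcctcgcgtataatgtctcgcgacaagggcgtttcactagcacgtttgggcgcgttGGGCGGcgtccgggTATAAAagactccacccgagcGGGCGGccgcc
ADGRF1, chr6:47042333-47042582, minus strand: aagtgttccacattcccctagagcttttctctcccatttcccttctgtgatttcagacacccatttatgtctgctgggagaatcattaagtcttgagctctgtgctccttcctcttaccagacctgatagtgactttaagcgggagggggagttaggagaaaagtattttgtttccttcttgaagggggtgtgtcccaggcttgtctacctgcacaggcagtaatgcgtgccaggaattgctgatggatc

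The POLR2A window held 2 GC boxes and no TATAAA or CCAAT. The HEXIM1 window held 1 TATAAA, 2 CCAAT boxes (1 of them on the other strand) and 2 GC boxes, and the PPP1R10 window held 1 TATAAA, 2 CCAAT boxes and 3 GC boxes. None of these letters was in the ADGRF1 window. Over the 35116 RefSeq promoter windows of the same length, 10.7% held TATAAA, 32.0% held CCAAT and 42.6% held the GC box on either strand. The ETS core CCGGAAG, the cyclic AMP response element TGACGTCA and the E-box CACGTG were searched too and were in none of the 4 windows, while 8.52%, 1.65% and 6.34% of all windows held them. These matches describe the windows only. By the GENCODE coordinates, the PPP1R10 window lies wholly inside the gene and the ADGRF1 window partly inside it.

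The 12 largest rises among genes of at least 10 CPM were led by RNA45S5, HEXIM1, VAMP1 and POLR2A. RNA45S5, the precursor of ribosomal RNA, had 14.1, 15.99 and 12.6 CPM in THZ1 libraries and 4.74, 3.30 and 3.98 CPM in DMSO libraries, a log2 fold change of 1.82 (SE 0.16, adjusted p = 1.1e-13 in edgeR). It is encoded in many near-identical copies, so the share of its reads that could be counted is uncertain. VAMP1, a vesicle fusion protein, averaged 16.8 ± 2.19 CPM in THZ1 libraries and 8.47 ± 1.28 CPM in DMSO libraries (SD, n = 3 each). RBM15, an RNA-binding protein of the complex that writes N6-methyladenosine, averaged 36.1 ± 2.09 CPM in THZ1 libraries and 20.4 ± 0.842 CPM in DMSO libraries. DIO3, which inactivates thyroid hormone, averaged 43.9 ± 2.89 and 26.9 ± 2.07 CPM in THZ1 and DMSO libraries, and TNFRSF10D, a decoy receptor for the death ligand TRAIL, averaged 34.7 ± 2.50 and 21.8 ± 0.333 CPM. ANKRD18A, CCDC134, the racemase AMACR, the zinc finger factor OSR2 and the secreted protein CCDC80 completed the group, at log2 fold changes between 0.69 and 0.82. All 12 kept their calls in each of the alternative analyses run.

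The 12 largest falls ran from KRCC1 at -1.38 to SLC2A10, a glucose transporter, at -0.86. KRCC1 had 6.72, 5.96 and 4.75 CPM in THZ1 libraries and 17.9, 14.04 and 13.7 CPM in DMSO libraries, well below in every treated library. SFR1, a partner in recombination repair, averaged 6.42 ± 0.0739 CPM in THZ1 libraries and 13.0 ± 0.671 CPM in DMSO libraries. RAPGEFL1, named for its likeness to exchange factors of the RAP GTPases, averaged 17.5 ± 0.575 CPM in THZ1 libraries and 32.2 ± 1.44 CPM in DMSO libraries. SLC17A5, the lysosomal exporter of sialic acid, averaged 14.03 ± 1.98 CPM in THZ1 libraries and 25.8 ± 1.82 CPM in DMSO libraries. The others were CTBP1-AS2, PPP1R10, the ubiquitin ligase adaptor KLHL22, C21orf58, the vitamin B12 handling protein MMACHC, ADGRF1 and ARHGEF39, a guanine nucleotide exchange factor. These 12 also kept their calls in each alternative. The sources do not say whether counting used strand, so reads of HEXIM1, VAMP1, RBM15, ANKRD18A, PPP1R10, MMACHC and ARHGEF39 cannot be told apart from those of a gene that overlaps them on the other strand. AMACR and KLHL22 overlap another gene on their own strand.

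The kinases that THZ1 targets were not lower at the RNA level. Of 12 kinases and cyclins of the transcription cycle, 2 were called higher (16.7%) and none lower, beside 6.95% and 7.64% of all genes. The median log2 fold change of the list was 0.11, beside 0.01 over all genes tested. CDK7 itself had 37.3, 42.3 and 42.0 CPM in THZ1 libraries and 38.4, 33.8 and 35.4 CPM in DMSO libraries, overlapping groups with a log2 fold change of 0.17 that did not pass (adjusted p = 0.127, edgeR). CDK12 rose, to 187, 191 and 192 CPM in THZ1 libraries against 159, 152 and 149 CPM in DMSO libraries, at a log2 fold change of 0.31 (SE 0.048, adjusted p = 6.55e-07, edgeR). The other call was CCNT1, a cyclin of P-TEFb, at 0.19 (adjusted p = 0.0126, edgeR), which missed the threshold without THZ1 replicate 2 (0.17, adjusted p = 0.0636) or THZ1 replicate 3 (0.15, adjusted p = 0.111). CDK13 had a log2 fold change of 0.07 (adjusted p = 0.505, edgeR). CDK9 stood at 0.19 (adjusted p = 0.0752, edgeR), and without THZ1 replicate 3 at 0.25 (adjusted p = 0.0302).

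Several factors of pause release rose, among them HEXIM1 and BRD2. Of 28 factors, 7 were called higher (25.0%, beside 6.95% of all genes) and 1 lower, with a median of 0.08. Without THZ1 replicate 2, 4 were called higher. BRD2, a bromodomain reader of acetylated histones, had 462, 451 and 458 CPM in THZ1 libraries and 325, 338 and 331 CPM in DMSO libraries. It rose in every library by more than the spread within groups, at a log2 fold change of 0.47 (SE 0.04, adjusted p = 3.78e-16, edgeR). The elongation factor ELL had a log2 fold change of 0.50 (adjusted p = 0.00265, edgeR), and 0.35 (adjusted p = 0.0734) without DMSO replicate 1. AFF1, a scaffold of the super elongation complex, had 0.26 (adjusted p = 0.00238, edgeR), and 0.21 (adjusted p = 0.0577) without DMSO replicate 3. The remaining higher calls were ELL2, AFF4 and CTR9, and the lower one was LARP7, a protein of the 7SK particle, at -0.25, which passed with all libraries but not without DMSO replicate 1 (adjusted p = 0.0883), THZ1 replicate 1 (adjusted p = 0.0637) or THZ1 replicate 3 (adjusted p = 0.061).

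Of the 12 subunits of the polymerase, the only call besides POLR2A was POLR2K at 0.23 (adjusted p = 0.0163, edgeR), and without DMSO replicate 1, DMSO replicate 3 or THZ1 replicate 3 POLR2A was the single call. POLR2B, the other large subunit, averaged 192 ± 5.51 CPM in THZ1 libraries and 195 ± 9.80 CPM in DMSO libraries, a log2 fold change of -0.02 (adjusted p = 0.846, edgeR). The log2 fold changes of the other 9 lay between -0.12 and 0.13, none of which passed the test. Of 28 general transcription factors, 2 were called higher and 1 lower (7.14% and 3.57%, beside 6.95% and 7.64% of all genes). The lower one, TAF2 at -0.18, did not pass once any 1 of the 6 libraries was left out. GTF2B, which places the polymerase at the start site, rose by 0.36 (adjusted p = 0.00159, edgeR), and TAF9, a TFIID subunit, rose by 0.27 (adjusted p = 0.00086, edgeR).

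Termination factors moved in both directions. Of 27 restrictor and termination factors, 4 were called higher and 7 lower (14.8% and 25.9%, beside 6.95% and 7.64% of all genes). Their median was -0.05, and leaving out 1 library gave 3 to 4 higher and 7 to 8 lower. ZC3H4, which ends unproductive transcription, had 36.7, 31.8 and 33.0 CPM in THZ1 libraries and 52.8, 51.4 and 48.2 CPM in DMSO libraries. Every treated library was below every control library, at a log2 fold change of -0.58 (SE 0.075, adjusted p = 4.6e-09, edgeR). It overlaps SAE1 on the other strand, as DDIT3 overlaps MARS and MBD6, CSTF3 overlaps LINC00294 and TCP11L1, and SOX9 and PMEPA1 overlap SOX9-AS1 and NKILA. CSTF3, a scaffold of the cleavage stimulation factor, averaged 23.6 ± 1.20 CPM in THZ1 libraries and 39.8 ± 1.04 CPM in DMSO libraries, a log2 fold change of -0.75 (adjusted p = 1.09e-11, edgeR). RPRD1A, which binds the polymerase tail, fell by 0.46. In the same list RPRD2 rose by 0.37 (adjusted p = 3.84e-06, edgeR), and the cleavage factors CPSF1 and CPSF6 rose by 0.31 and 0.27. Of 40 Mediator and Integrator subunits, 4 were called higher and 6 lower, and the higher count was 1 without THZ1 replicate 1 and 2 when any 1 DMSO library was left out. INTS3, an Integrator subunit, averaged 76.6 ± 0.740 CPM in THZ1 libraries and 111 ± 3.37 CPM in DMSO libraries (log2 fold change -0.54, adjusted p = 1.98e-12, edgeR).

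Of 40 SR proteins, CLK kinases and hnRNPs, 10 were called lower and 2 higher (25.0% and 5.0%, beside 7.64% and 6.95% of all genes). Their median was -0.04. HNRNPDL had 167, 175 and 179 CPM in THZ1 libraries and 273, 268 and 278 CPM in DMSO libraries, clearly apart, at a log2 fold change of -0.65 (SE 0.045, adjusted p = 7.9e-22, edgeR). SRSF3 averaged 252 ± 7.997 CPM in THZ1 libraries and 331 ± 6.04 CPM in DMSO libraries, and SRSF1 averaged 340 ± 5.44 and 424 ± 18.8 CPM in THZ1 and DMSO libraries, log2 fold changes of -0.39 and -0.32. HNRNPD fell by 0.29, while HNRNPU rose by 0.15. Leaving out 1 library gave 9 to 10 lower calls in this list, and 1 higher call was left without DMSO replicate 2. Of 21 hosts of small nucleolar RNAs, 8 were called lower (38.1%) and none higher, with a median of -0.24. Without DMSO replicate 3 or THZ1 replicate 2, 5 of these hosts were lower. SNHG1 averaged 47.1 ± 0.764 CPM in THZ1 libraries and 64.6 ± 2.78 CPM in DMSO libraries (log2 fold change -0.45, adjusted p = 3.88e-07, edgeR), and SNHG16 and SNHG7 each fell by 0.34.

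Transcripts named as antisense to another gene gave no higher call with all libraries and 1 without THZ1 replicate 2. Of 224 tested, 30 were lower (13.4%), with a median of -0.19. Over all genes tested, 7.64% were called lower and 6.95% higher. DESeq2 called 17 of the antisense-named transcripts lower, and leaving out 1 library left 20 to 28 lower. CTBP1-AS2 had 9.63, 7.72 and 8.34 CPM in THZ1 libraries and 17.9, 18.4 and 19.0 CPM in DMSO libraries, lower in every treated library (log2 fold change -1.10, SE 0.13, adjusted p = 7.32e-11, edgeR). OTUD6B-AS1 averaged 25.3 ± 1.62 CPM in THZ1 libraries and 35.6 ± 1.22 CPM in DMSO libraries, and B3GALT5-AS1 averaged 12.8 ± 2.05 and 19.8 ± 0.871 CPM in THZ1 and DMSO libraries. For all 30 the gene after which the transcript is named was tested too: 4 of these partners were lower, 1 was higher and 25 were not called. The median log2 fold change of the 30 antisense transcripts, which were chosen by that fall, was -0.63, and that of their partners was -0.05. Of 115 long intergenic noncoding transcripts, 15 were lower and 3 higher with all libraries (13.0% and 2.61%). Leaving out any 1 library left 7 to 9 lower and 0 to 4 higher, and THZ1 replicate 2 was the library without which none was higher. DESeq2, like the fit without both libraries with more reads of other-line genes, called 3 of these transcripts lower and none higher. Without strand, reads of an antisense transcript and of its partner cannot be told apart where they overlap.

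Numbered ZNF genes encode zinc finger factors, and many of their mRNAs are known to be short-lived. Of 442 tested, 28 were called lower and 11 higher (6.33% and 2.49%, beside 7.64% and 6.95% of all genes), and the list's median was -0.02. DESeq2 called 4 higher, and without both libraries with more reads of other-line genes there were 14 lower and 5 higher. Leaving out DMSO replicate 3 left 16 lower, and each library left out in turn gave 6 to 7 higher. ZNF605 averaged 9.93 ± 1.82 CPM in THZ1 libraries and 16.6 ± 0.556 CPM in DMSO libraries, and ZNF76 averaged 18.1 ± 0.640 and 28.1 ± 1.57 CPM in THZ1 and DMSO libraries. The same list had medians of -1.03 in BxPC3 and -1.40 in Panc327. Cytoplasmic ribosomal protein genes, whose mRNAs are long-lived, had a median of 0.05 in SUIT2 with 5 of 83 called higher (6.02%, beside 6.95% of all genes) and none lower, next to medians of 0.88 in BxPC3 and 1.01 in Panc327. The number of higher ribosomal protein genes was 0 without THZ1 replicate 1, 2 without DMSO replicate 1 or 3, 10 without DMSO replicate 2, and 8 without THZ1 replicate 2 or 3. DESeq2 called 3 and limma voom 9, and none was called without both libraries with more reads of other-line genes.

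**Figure D3:**
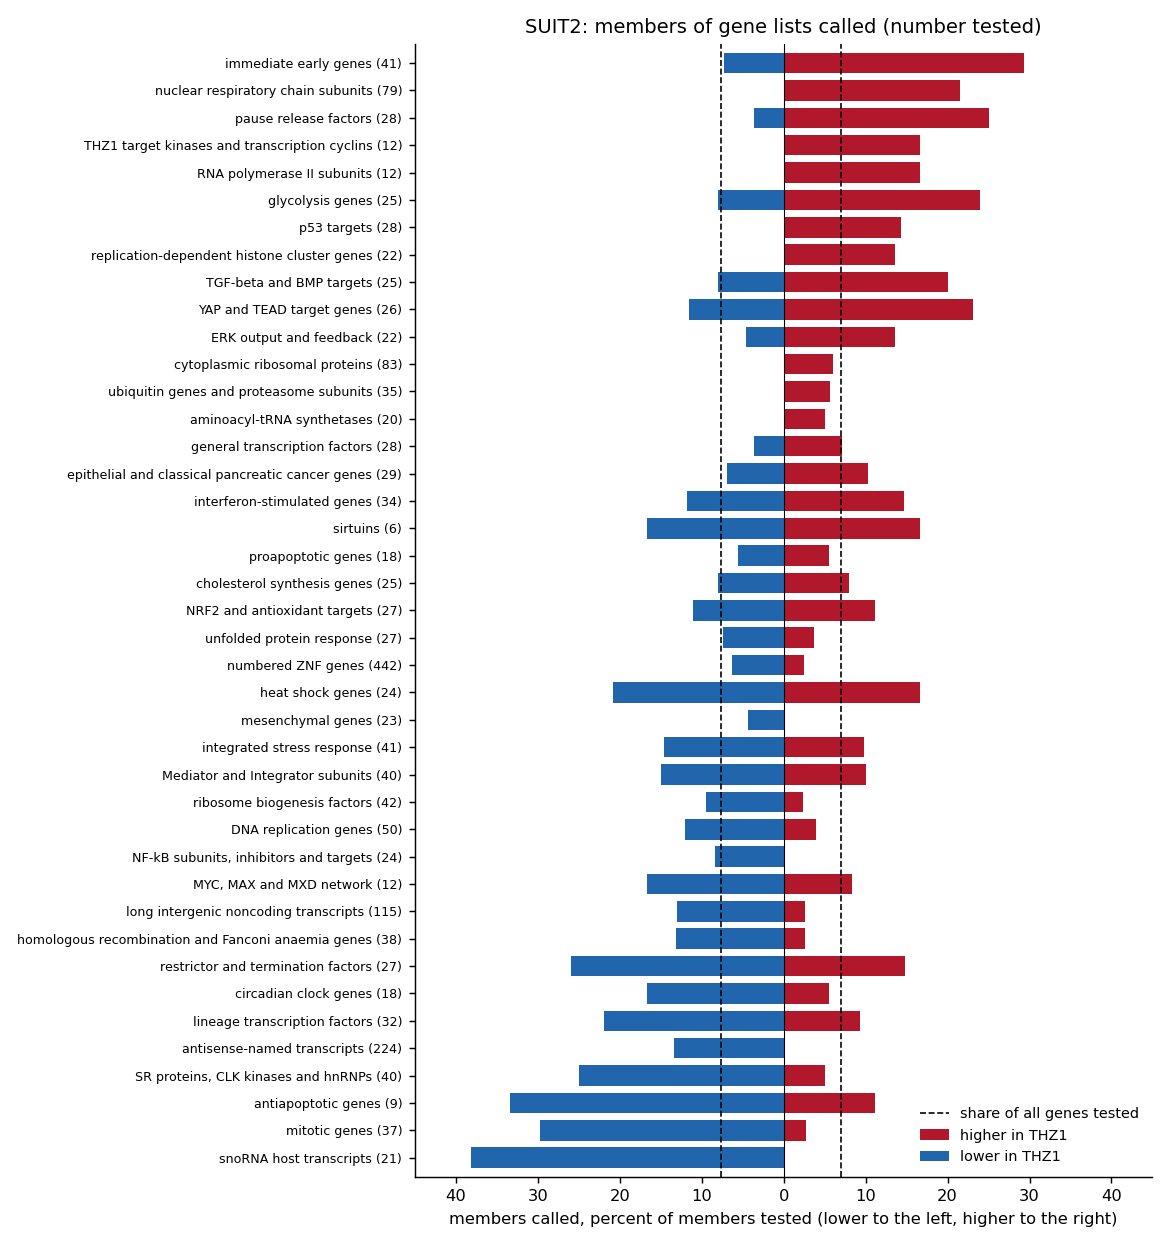
Members of gene lists called in SUIT2. Red bars to the right give the percent of tested members higher in THZ1 and blue bars to the left the percent lower, with the number of members tested in parentheses; the dashed lines mark the shares over all 14011 genes (6.95% higher and 7.64% lower). The longest bars to the right belong to immediate early genes (29.3%), pause release factors (25.0%) and glycolysis genes, and the longest to the left to hosts of small nucleolar RNAs (38.1%), antiapoptotic genes (33.3%) and mitotic genes (29.7%).

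The integrated stress response was not raised as a list. Of its 41 measured members, 4 were called higher and 6 lower (9.76% and 14.6%, beside 6.95% and 7.64% of all genes). The median of this response was -0.02. ATF4, its central factor, had 187, 182 and 183 CPM in THZ1 libraries and 235, 242 and 245 CPM in DMSO libraries. The groups were apart, with THZ1 lower, at a log2 fold change of -0.38 (SE 0.043, adjusted p = 3.33e-11, edgeR). DDIT3, the CHOP protein downstream of ATF4, had 30.1, 28.6 and 31.7 CPM in THZ1 libraries and 37.0, 38.5 and 39.1 CPM in DMSO libraries (log2 fold change -0.34, SE 0.083, adjusted p = 0.00235, edgeR). The amino acid transporter SLC7A5 averaged 1925 ± 97.4 CPM in THZ1 libraries and 2539 ± 65.5 CPM in DMSO libraries, a log2 fold change of -0.40, and the secreted hormone STC2 fell by 0.36. On the other side ATF5 averaged 44.2 ± 0.978 CPM in THZ1 libraries and 35.8 ± 2.31 CPM in DMSO libraries, a log2 fold change of 0.30 (adjusted p = 0.00207, edgeR). ASNS, the asparagine synthetase that ATF4 activates, averaged 35.3 ± 3.26 CPM in THZ1 libraries and 31.1 ± 1.79 CPM in DMSO libraries with overlapping groups (0.18, adjusted p = 0.125, edgeR), and without THZ1 replicate 1 it passed at 0.25 (adjusted p = 0.0483). The remaining higher members were SHMT2, ATF3 and CTH and the remaining lower ones SLC1A4 and XPOT. Without DMSO replicate 1, 2 members were called higher.

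SIRT6 itself did not change detectably. It had 20.4, 15.9 and 16.1 CPM in THZ1 libraries and 14.9, 14.8 and 19.4 CPM in DMSO libraries, with 1 high library in each group (log2 fold change 0.09, SE 0.11, adjusted p = 0.659, edgeR). Among the 6 sirtuins tested, SIRT5, a mitochondrial desuccinylase, fell to 7.50, 6.50 and 7.18 CPM in THZ1 libraries against 11.2, 11.8 and 12.2 CPM in DMSO libraries (log2 fold change -0.73, adjusted p = 7.91e-05, edgeR). SIRT1, a nuclear deacetylase, averaged 36.7 ± 1.64 CPM in THZ1 libraries and 29.6 ± 3.02 CPM in DMSO libraries, a log2 fold change of 0.31 (adjusted p = 0.00613, edgeR) that did not pass without DMSO replicate 2 (0.23, adjusted p = 0.0893).

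Immediate early genes are the rapid targets of growth factor signalling. Of 41 tested, 12 were higher and 3 lower (29.3% and 7.32%, beside 6.95% and 7.64% of all genes), with a median of 0.18. Leaving out 1 library gave 8 to 12 higher, and leaving out both libraries with more reads of other-line genes gave 7 higher and 1 lower. IER5 had 25.5, 25.6 and 27.2 CPM in THZ1 libraries and 16.9, 18.3 and 19.3 CPM in DMSO libraries, at a log2 fold change of 0.52 (SE 0.092, adjusted p = 1.62e-05, edgeR). JUNB, an AP-1 subunit, averaged 60.1 ± 7.49 CPM in THZ1 libraries and 40.5 ± 2.46 CPM in DMSO libraries (log2 fold change 0.57, adjusted p = 0.00987, edgeR; 0.0779 without both of those libraries). FOSL1, another AP-1 subunit, moved the other way, with 262, 245 and 236 CPM in THZ1 libraries and 342, 347 and 338 CPM in DMSO libraries (log2 fold change -0.47, SE 0.045, adjusted p = 5.79e-14, edgeR). FOS itself had 5.15, 3.66 and 4.05 CPM in THZ1 libraries and 2.91, 3.30 and 3.09 CPM in DMSO libraries, a log2 fold change of 0.48 that did not pass (adjusted p = 0.124, edgeR). EGR1 averaged 23.0 ± 1.48 CPM in THZ1 libraries and 23.1 ± 1.15 CPM in DMSO libraries, and DUSP6, a feedback phosphatase of ERK, averaged 59.5 ± 4.30 and 54.8 ± 1.51 CPM in THZ1 and DMSO libraries, without a call for either gene. MYC, a growth-promoting transcription factor, had 167, 176 and 182 CPM in THZ1 libraries and 196, 200 and 202 CPM in DMSO libraries. This small fall of 0.19 on the log2 scale (adjusted p = 0.00602, edgeR) did not pass without both libraries with more reads of other-line genes (adjusted p = 0.116, edgeR).

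Survival genes were also mixed. Of 9 antiapoptotic genes, 1 was called higher and 3 lower (11.1% and 33.3%, beside 6.95% and 7.64% of all genes). MCL1 had 306, 317 and 324 CPM in THZ1 libraries and 288, 273 and 276 CPM in DMSO libraries, higher in every treated library at a log2 fold change of 0.18 (SE 0.042, adjusted p = 0.00144, edgeR). BCL2L2 averaged 24.9 ± 0.133 CPM in THZ1 libraries and 34.4 ± 2.18 CPM in DMSO libraries, and BIRC3, an inhibitor of cell death also induced by NF-kB, averaged 40.1 ± 1.75 and 55.2 ± 0.549 CPM in THZ1 and DMSO libraries, log2 fold changes of -0.47 and -0.46. The initiator protease CASP8 fell by 0.35. Of 28 p53 targets, 4 were called higher (14.3%) and none lower. Their median was 0.11, and leaving out 1 library gave 3 to 4 higher. FDXR, a mitochondrial reductase, had 31.9, 30.2 and 31.1 CPM in THZ1 libraries and 20.04, 22.7 and 21.4 CPM in DMSO libraries (log2 fold change 0.54, adjusted p = 5.98e-06, edgeR), and CCNG1 rose by 0.27.

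Of 37 mitotic genes, 11 were called lower and 1 higher (29.7% and 2.70%, beside 7.64% and 6.95% of all genes), with a median of -0.04, and without DMSO replicate 1 there were 7 lower and 2 higher. Without THZ1 replicate 2 none was higher. CCNB1, the mitotic cyclin, had 268, 257 and 245 CPM in THZ1 libraries and 311, 285 and 317 CPM in DMSO libraries, a log2 fold change of -0.25 (SE 0.043, adjusted p = 1.25e-05, edgeR). CDC20, an activator of the anaphase-promoting complex, averaged 236 ± 16.1 CPM in THZ1 libraries and 284 ± 11.6 CPM in DMSO libraries, and HMMR and AURKB fell by 0.29 and 0.26. Of 50 DNA replication genes, 6 were lower and 2 higher, among them the polymerase alpha subunits POLA2 (40.5 ± 4.28 CPM in THZ1 libraries, 56.9 ± 0.885 CPM in DMSO libraries) and PRIM1, at log2 fold changes of -0.48 and -0.38. The 2 higher calls were lost without THZ1 replicate 1 or 2 or DMSO replicate 1, and 1 was left without DMSO replicate 2 or 3. The median of this list was 0.03. Of 38 recombination and Fanconi anaemia genes, 5 were lower and 1 higher, with RAD51C, a recombinase relative, and UBE2T, the conjugating enzyme of the pathway, at -0.42 and -0.35, while the core complex member FANCA rose by 0.34. Without DMSO replicate 3 or THZ1 replicate 3, 2 genes of this list were higher.

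Stress chaperones moved both ways. Of 24 heat shock genes, 4 were called higher and 5 lower (16.7% and 20.8%, beside 6.95% and 7.64% of all genes). The inducible chaperone genes HSPA1A and HSPA1B, which are near-identical copies whose reads cannot be assigned with certainty, averaged 98.0 ± 7.50 and 77.3 ± 9.20 CPM in THZ1 libraries, against 74.3 ± 3.61 and 59.2 ± 1.30 CPM in DMSO libraries. The constitutive HSPA8 averaged 3069 ± 61.1 CPM in THZ1 libraries and 3662 ± 100.3 CPM in DMSO libraries, a log2 fold change of -0.25 (adjusted p = 3.56e-08, edgeR), and its partner DNAJA1 fell by 0.18. The number of lower heat shock genes was 3 without DMSO replicate 1 or THZ1 replicate 1 and 2 without DMSO replicate 3. XBP1, a factor of the unfolded protein response, averaged 78.2 ± 2.11 CPM in THZ1 libraries and 97.4 ± 4.38 CPM in DMSO libraries, a log2 fold change of -0.32.

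Of 32 lineage transcription factors, 3 were called higher and 7 lower (9.38% and 21.9%, beside 6.95% and 7.64% of all genes). EHF, an epithelial ETS factor, had 164, 172 and 171 CPM in THZ1 libraries and 231, 211 and 229 CPM in DMSO libraries (log2 fold change -0.41, SE 0.047, adjusted p = 5.04e-11, edgeR). SOX9, a factor of ductal cells, averaged 57.4 ± 1.81 CPM in THZ1 libraries and 44.0 ± 2.09 CPM in DMSO libraries, a log2 fold change of 0.38. Without DMSO replicate 3 or THZ1 replicate 2 the list held 4 lower calls, and without THZ1 replicate 2 it held 1 higher. Of 29 epithelial and classical pancreatic cancer genes, 3 were called higher (10.3%: CLDN4, KRT8 and ELF3) and 2 lower (6.90%: EPCAM and REG4). The median of these 29 genes was 0.03. CLDN4, a tight junction protein and epithelial marker, averaged 191 ± 8.16 CPM in THZ1 libraries and 143 ± 3.61 CPM in DMSO libraries (log2 fold change 0.42, adjusted p = 2.91e-10, edgeR). EPCAM, an epithelial adhesion protein, averaged 195 ± 8.29 CPM in THZ1 libraries and 217 ± 10.7 CPM in DMSO libraries (log2 fold change -0.16, adjusted p = 0.00886, edgeR). No gene of this list was called lower without DMSO replicate 3 or THZ1 replicate 1, and 1 was without DMSO replicate 2, THZ1 replicate 2 or THZ1 replicate 3 and with DESeq2. Without both libraries with more reads of other-line genes 1 was higher and none lower. Of 34 interferon-stimulated genes, 5 were called higher (14.7%), among them IFIT2, ISG15, STAT2 and IRF7. The 4 called lower (11.8%) were OAS1, OAS3, IFI44 and IRF1, and the median was 0.02. The higher calls numbered 2 without THZ1 replicate 1 and 3 without DMSO replicate 3 or THZ1 replicate 3. The lower ones numbered 0 without DMSO replicate 1, 1 without DMSO replicate 3, THZ1 replicate 2 or THZ1 replicate 3, 2 without THZ1 replicate 1, 0 with DESeq2 and 2 with limma voom or SUIT2 alone. Without both libraries with more reads of other-line genes there were 2 in each direction. STAT2, a signal transducer of interferon, averaged 49.8 ± 2.82 CPM in THZ1 libraries and 33.6 ± 2.55 CPM in DMSO libraries, a log2 fold change of 0.58. Of 27 targets of the antioxidant factor NRF2, 3 were higher and 3 lower (11.1% each). TXNRD1 and the drug exporter ABCC3 fell by 0.24 and 0.38, while FTL, the light chain of the iron store ferritin, rose by 0.21.

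Targets of the YAP and TEAD growth pathway moved both ways. Of 26, 6 were called higher and 3 lower (23.1% and 11.5%, beside 6.95% and 7.64% of all genes). CYR61, a secreted matrix protein and classic YAP target, averaged 108 ± 3.69 CPM in THZ1 libraries and 90.3 ± 6.56 CPM in DMSO libraries, a log2 fold change of 0.26 (adjusted p = 0.00066, edgeR). Without DMSO replicate 2 the higher targets numbered 2, and without DMSO replicate 3 or THZ1 replicate 2 they numbered 3. DESeq2 also called 3 higher, and without both libraries with more reads of other-line genes there were 3 higher and 1 lower. Of 25 targets of TGF-beta and BMP, 5 were higher and 2 lower, and PMEPA1, an inhibitor of that signalling, averaged 179 ± 3.37 CPM in THZ1 libraries and 207 ± 3.07 CPM in DMSO libraries. The higher count of this list was 2 without THZ1 replicate 1 and 3 without DMSO replicate 3, and the lower count was 1 once any library was left out. Without both libraries with more reads of other-line genes, 1 was higher and 1 lower. Of 25 glycolysis genes, 6 were higher and 2 lower. Without THZ1 replicate 1 there were 3 higher, and without DMSO replicate 2 none was lower. Only 1 glycolysis gene was higher without both libraries with more reads of other-line genes.

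Respiratory chain genes gave only higher calls, all small. Of 79 nuclear-encoded subunits, 17 were called higher (21.5%, beside 6.95% of all genes) and none lower, by 0.11 to 0.27 on the log2 scale, and the median of the list was 0.08. This count depended on single libraries: it was 4 without THZ1 replicate 1, 5 without DMSO replicate 1, 7 without DMSO replicate 3 and 11 without THZ1 replicate 2. Without both libraries with more reads of other-line genes it was 2, and DESeq2 or a fit of SUIT2 alone gave 10.

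Gene structure went little with the response. Across the 12649 protein-coding genes tested, the Spearman correlation of the log2 fold change was 0.02 with gene length and 0.04 with the number of exons, values across genes of the same libraries that share depth and are given without a test. Ranked by exon number and cut into 4 equal parts, 10.7% of genes were called higher in the part with the most exons and 5.66% in the part with the fewest. Calls were more frequent among abundant genes, with 13.1% of genes in the most abundant part and 1.39% in the least abundant part called higher. The shares called lower were 9.49% and 3.32% in the same order. A change of a given size is easier to call with more reads, so these shares do not compare the size of the response. Lists of abundant genes are likewise set beside an all-gene share that includes faint genes. The Spearman correlation of the log2 fold change with the level was 0.10.

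The response of SUIT2 differed in size from that of the other lines. At the same threshold THZ1 altered 14.6% of genes in SUIT2, beside 69.4% in BxPC3 and 73.4% in Panc327. The test of the difference in response itself passed for 7694 genes (54.9%) against BxPC3 and 8507 genes (60.7%) against Panc327. With library size as the only scaling, the differences shifted as a whole by 0.35 (BxPC3) and 0.32 (Panc327) at the median gene, so small differences depend on the scaling. Of the 2044 genes called in SUIT2, 1667 (81.6%) changed with the same sign in BxPC3 and 1432 (70.1%) in Panc327. In BxPC3, 1458 of the 2044 were also called with the same sign and 219 with the opposite sign, and in Panc327 1201 and 414. Among those 1458 and 1201 genes the median ratio of the SUIT2 log2 fold change to that of the other line was 0.34 for both. Across all genes tested, the Spearman correlation of the log2 fold changes was 0.36 with BxPC3 and 0.21 with Panc327, given without a test. The lines share no libraries. A call in the same direction in all 3 lines was found for 507 higher and 605 lower genes, and 160 genes were called in SUIT2 without a call in the other lines. Since 69.4% and 73.4% of all genes were called in BxPC3 and Panc327, most genes of any kind have a call there. The 160 are therefore not read as particular to SUIT2. Shares of the same sign or of shared calls over all genes tested were not computed. The share of records aligned to several places, at most 13.8% in SUIT2 THZ1 libraries, was 21.9% to 23.4% in BxPC3 and 51.7% to 54.9% in Panc327 THZ1 libraries, and RNA45S5 had log2 fold changes of 8.51 and 7.57 in those lines, beside 1.82 in SUIT2. The part of these shares in the difference was not tested.

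**Figure D4:**
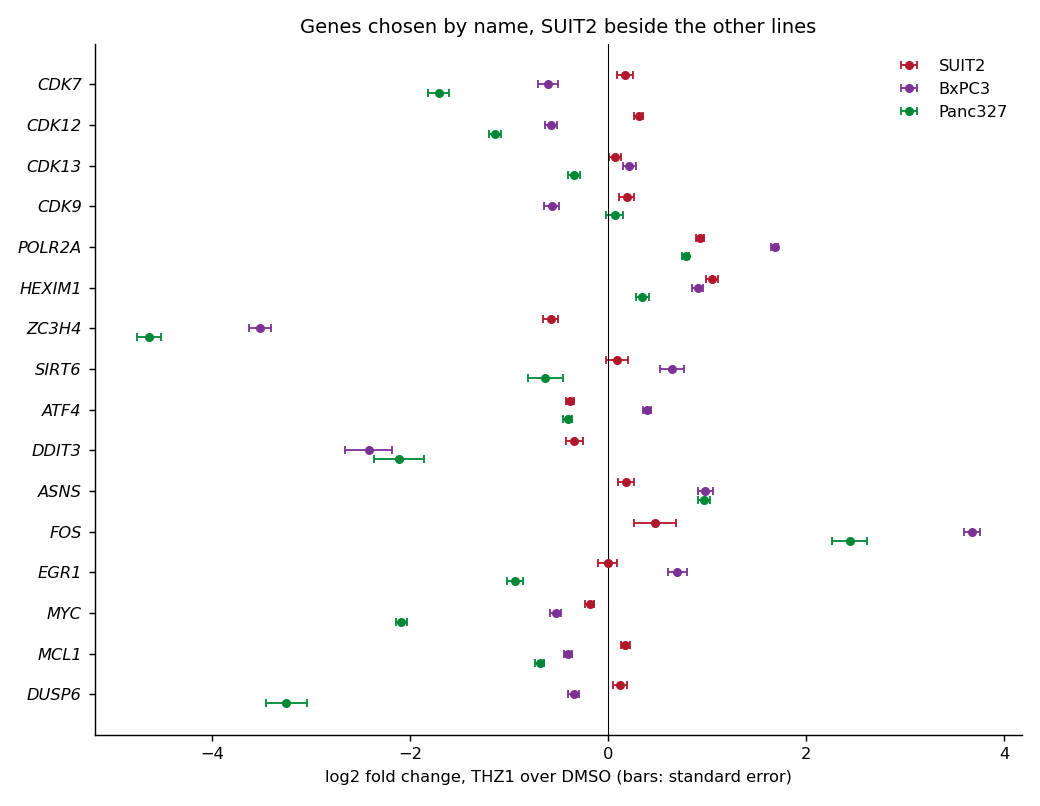
Log2 fold change of THZ1 over DMSO for genes chosen by name in SUIT2 (red), BxPC3 (purple) and Panc327 (green). Points are the fitted values and bars their approximate standard errors. All SUIT2 points except POLR2A and HEXIM1 lie within 0.6 of 0, while ZC3H4 reaches -3.52 in BxPC3 and -4.64 in Panc327.

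POLR2A, HEXIM1, ZC3H4 and PPP1R10 moved the same way in the 3 lines. POLR2A had log2 fold changes of 0.93 in SUIT2, 1.68 in BxPC3 and 0.78 in Panc327, and HEXIM1 had 1.05 in SUIT2, 0.91 in BxPC3 and 0.35 in Panc327. HEXIM1 rose more in SUIT2 than in Panc327 (difference 0.70, adjusted p = 1.03e-11, edgeR), while its difference of 0.15 from BxPC3 did not pass (adjusted p = 0.13). ZC3H4 fell far less in SUIT2 than in BxPC3 and Panc327, by differences of 2.94 and 4.06. PPP1R10, at -1.02 in SUIT2, had -3.23 in BxPC3 and -3.34 in Panc327. Other genes had opposite calls in SUIT2 and in both other lines, as 98 higher and 71 lower of the 2044 genes called in SUIT2 did. These counts were not set against a share over all genes. CDK12 was at 0.31 in SUIT2, -0.58 in BxPC3 and -1.14 in Panc327, and MCL1 was at 0.18, -0.40 and -0.69 in the same order. ABCC3 was at -0.38 in SUIT2, 0.53 in BxPC3 and 0.52 in Panc327, and NT5E, an ecto-nucleotidase, was at -0.32, 0.68 and 0.77.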

How the data were processed

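Polyadenylated RNA of 18 libraries was sequenced, of which the 6 SUIT2 libraries are described. Per the submitters' processing notes, bcl2fastq 1.8.4, TopHat2 2.1.0, HTSeq 0.6.1 and the human build hg38 were used. The authors deposited whole-number counts of reads per gene symbol, with no normalization. Whether counting used strand is not given in the sources used here. Rows that name no gene entered neither the library sizes nor the tests; they held 21.3% to 23.9% of records in SUIT2 libraries.

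Counts were tested with edgeR 4.0.16 (R 4.3.3) by the robust quasi-likelihood test, with TMM scaling and filterByExpr at a minimum count of 10 and a minimum total of 15. The fit held the means of 6 groups of 3 libraries, with 12 residual degrees of freedom. The common dispersion was 0.0012. SUIT2 THZ1 minus SUIT2 DMSO was tested in it, as were the differences of this response from those of BxPC3 and Panc327. A gene was called at a Benjamini-Hochberg adjusted p under 0.05 over the 14011 genes tested. Standard errors (SE) were taken from the fold change and its F value and are approximate. Levels are TMM-scaled CPM with the SD over 3 libraries. Sums of other-line genes are TMM-scaled CPM too, while marker sums are unscaled CPM. Of 26485 symbols, 23825 were found by name in GENCODE 29.

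Named genes were the 12 largest changes in each direction with at least 10 CPM in a group and up to 4 called genes of each list and direction by the same minimum, besides 17 genes fixed by name, 1 of which is not reported here. ELL2, ATF3, CTH, AFF4, CTR9, SLC1A4, XPOT, POLR2B, IRF7 and the matrix genes were named after their values were seen, to complete a count or show a single library. The members and lists were chosen with earlier results of these data known. The genes of the other lines had at least 100 CPM there and under 0.5 CPM in the second lowest SUIT2 library. Same-numbered THZ1 and DMSO libraries did not deviate together (correlations -0.093, -0.027 and 0.004), so replicate numbers were not used as pairs. The replicates of a group differed by more than sampling noise (chi-square per degree of freedom 1.40 to 2.43). Alternatives were DESeq2 1.42.0, limma voom 3.58.1, other scalings, no filter, SUIT2 alone, a replicate block, leaving out each library and, chosen after seeing the data, leaving out THZ1 replicate 1 and DMSO replicate 3 together.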

Additional observations from a re-analysis of the deposited data

Results flagged for a closer look

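The response to THZ1 differed between SUIT2 and another line, by a test of the difference itself in edgeR, for 16 of the 18 differences examined in genes fixed by name. Over all genes tested, the same tests passed for 54.9% against BxPC3 and 60.7% against Panc327. Each value below is the SUIT2 log2 fold change minus that of the other line, with 3 libraries a group. POLR2A rose less in SUIT2 than in BxPC3 (-0.75, adjusted p = 9.3e-23) and a little more than in Panc327 (0.15, adjusted p = 0.0113), and the second difference was 0.03 with adjusted p = 0.711 under RLE size factors. HEXIM1 rose more in SUIT2 than in Panc327 (0.70, adjusted p = 1.03e-11). ZC3H4 fell less in SUIT2 than in BxPC3 (2.94, adjusted p = 2.08e-32) and in Panc327 (4.06, adjusted p = 2.49e-39). DDIT3 fell less than in BxPC3 (2.08, adjusted p = 4.57e-11) and in Panc327 (1.77, adjusted p = 2.77e-08).

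SIRT6, which did not pass in SUIT2 itself, stood below its BxPC3 response (-0.56, adjusted p = 0.00257, and -0.18 with adjusted p = 0.377 under library size only) and above its Panc327 response (0.73, adjusted p = 0.00193). ATF4 fell in SUIT2 and rose in BxPC3 (-0.78, adjusted p = 3.97e-20). FOS had a smaller log2 fold change in SUIT2 than in BxPC3 (-3.20, adjusted p = 9.1e-20) and in Panc327 (-1.96, adjusted p = 3.95e-09). MYC fell less in SUIT2 than in BxPC3 (0.34, adjusted p = 7.33e-05) and in Panc327 (1.90, adjusted p = 9.33e-37). DUSP6 differed from BxPC3 by 0.47 (adjusted p = 2.09e-06) and from Panc327 by 3.37 (adjusted p = 4.12e-25).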

How the results depend on the processing

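No gene called in SUIT2 was called in the opposite direction under any alternative. The 974 higher genes became 603 with DESeq2 and 493 without THZ1 replicate 1 and DMSO replicate 3, and the 1070 lower genes became 669 without those libraries. Leaving out each library in turn gave 601 to 763 higher and 752 to 909 lower genes, with the fewest higher without DMSO replicate 3. The 20 higher genes of at least 2-fold became 11 with DESeq2, 12 without those libraries, 31 with limma voom, 12 with SUIT2 alone and 15 to 22 without 1 library. The 63 lower ones became 25 with DESeq2 and 53 to 68 without 1 library. The genes whose response differs numbered 7324 to 7584 against BxPC3 and 8176 to 8363 against Panc327 when 1 library was left out. The replicate block gave 907 higher and 1013 lower genes, 17 and 63 of at least 2-fold, and 7639 and 8425 differences from BxPC3 and Panc327. The causes were not tested.

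Of 196 named genes called, 99 passed in each alternative, including the 24 largest changes. Differences between lines depend more on scaling: with library size only HEXIM1 differed from BxPC3 by 0.52 (adjusted p = 3.86e-08) and ATF4 from Panc327 by 0.33 (adjusted p = 9.86e-07), neither of which passed with TMM scaling and all libraries. HEXIM1 also passed against BxPC3 without BxPC3 DMSO replicate 1 (0.22, adjusted p = 0.015). With 6692486 to 8192459 counts a library, changes of genes under 5 CPM rest on few reads.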
